A study of Homo sapiens with 8 samples.

Results

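The CDKN1A locus, on chromosome 6 of the build hg18, was described by the p53 peaks that fell in a window of 45 kb from 36730000 to 36775000. CDKN1A lies on the plus strand and starts near 36754400, and all distances below are from this approximate start, with negative values upstream. Every peak of the 4 deposited p53 ChIP-seq lists that overlapped the window was a member, which gave 29 of 24535 peaks. They came from 3 lists, with 11 peaks from cells given DMSO, 5 from cells given doxorubicin and 13 from cells given Nutlin-3. The list of untreated cells had 0 peaks in the window.

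The cells were U2OS, a human osteosarcoma line whose endogenous p53 is wild-type, and p53 was precipitated with the antibody DO-1. The conditions were no treatment, the solvent DMSO at 0.1%, doxorubicin at 0.6 µg/ml and Nutlin-3 at 10 µM, each with a time of 24 h in the labels. Per the labels, doxorubicin has the untreated cells as its control and Nutlin-3 has DMSO. A condition consisted of 1 ChIP library with its input, all from this single line, so no difference between conditions has a replicate check and no p-value is given. A list gives only a chromosome, a start and an end for each peak, and the number of reads behind it is unknown. A site missing from a list was therefore not called in that library, and a width in bp is the only size that a peak has here.

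p53 is a transcription factor that binds DNA as a tetramer at paired half-sites and is held at a low level by the ubiquitin ligase MDM2. Doxorubicin traps topoisomerase II on DNA and causes breaks, which activates p53, while Nutlin-3 occupies the p53 pocket of MDM2 and stabilises p53 without a need for DNA damage. CDKN1A encodes p21, an inhibitor of cyclin-dependent kinases that halts the cell cycle, and it is a textbook direct target of p53, with a strong element about 2.2 kb upstream of its start and a further element between that one and the start. In the RefSeq gene order of GRCh38.p14, the noncoding RNA gene PANDAR and the pseudogene LAP3P2 are listed before CDKN1A. The noncoding RNA gene DINOL and the protein-coding gene RAB44 are listed after it. This order alone does not place a neighbour upstream or downstream of the start used here. PANDAR and DINOL are both known as p53-responsive noncoding RNAs. These neighbours were not placed on hg18, and whether a peak lies in an exon or an intron was not determined.

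The 250 bases before the CDKN1A start are shown because the broadest peak of the locus, in the Nutlin-3 list, ended at -0.13 kb. These bases are given on the plus strand, 5′ to 3′, from RefSeq with the build GRCh38.p14. The capitals mark the TATA motif and the GC boxes, searched as TATA and GGGCGG on both strands. By distance the peak reached into this stretch but not to the marked motifs. Its distance is from the approximate hg18 start, and that start was not aligned with the RefSeq start.
CDKN1A promoter: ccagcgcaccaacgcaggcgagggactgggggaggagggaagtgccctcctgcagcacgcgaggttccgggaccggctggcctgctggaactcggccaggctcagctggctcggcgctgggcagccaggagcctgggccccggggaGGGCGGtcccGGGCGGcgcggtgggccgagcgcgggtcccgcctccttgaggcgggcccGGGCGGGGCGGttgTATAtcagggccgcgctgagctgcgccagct
The TATA motif, which reads the same on both strands, began at -31, and the 4 GC boxes began at -104, -94, -45 and -40, of which the last pair overlapped. TATA was present in 27.1% and GGGCGG in 42.6% of 35116 RefSeq promoters of the same 250-base length. The p53 half-site consensus had 0 matches in this stretch of CDKN1A and was found in 5.57% of all promoters, and the letters CATG, the core of many p53 half-sites, had 0 matches here against 47.6% of promoters. Among 7 other direct p53 targets with an entry (MDM2, BBC3, BAX, FAS, TP53I3, SESN1 and ZMAT3), 1 had the half-site consensus, 1 had TATA and 4 had a GC box. A match is a run of letters and not a measured site, and the 250 bases hold neither the classical upstream element nor the sites of most peaks described below.

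The 29 peaks merged into 15 distinct sites when overlapping or adjoining peaks were joined. DMSO held 11 of these sites, doxorubicin 5 and Nutlin-3 13. There were 5 sites with DMSO, doxorubicin and Nutlin-3, 4 with DMSO and Nutlin-3 alone, 4 with Nutlin-3 alone, 2 with DMSO alone and 0 with doxorubicin alone. These counts depend on the settings: merging peaks up to 500 bp apart gave 6 sites, 3 of them in 3 lists, 3 in 2 lists and 0 in 1 list, and with as many of the widest peaks of each list as the DMSO list holds, 1 site was in 3 lists, 7 in 2 lists and 4 in 1 list. Every site listed after doxorubicin was thus also listed with the solvent and with Nutlin-3, of which 1 only adjoined the peaks of the other lists. Over the whole doxorubicin list, 40.6% of peaks were overlapped by a DMSO peak and 63.5% by a Nutlin-3 peak. Whether the 5 sites differ from this was not tested. Of the 15 sites, 10 lay upstream of the start and 5 downstream.

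**Figure D1:**
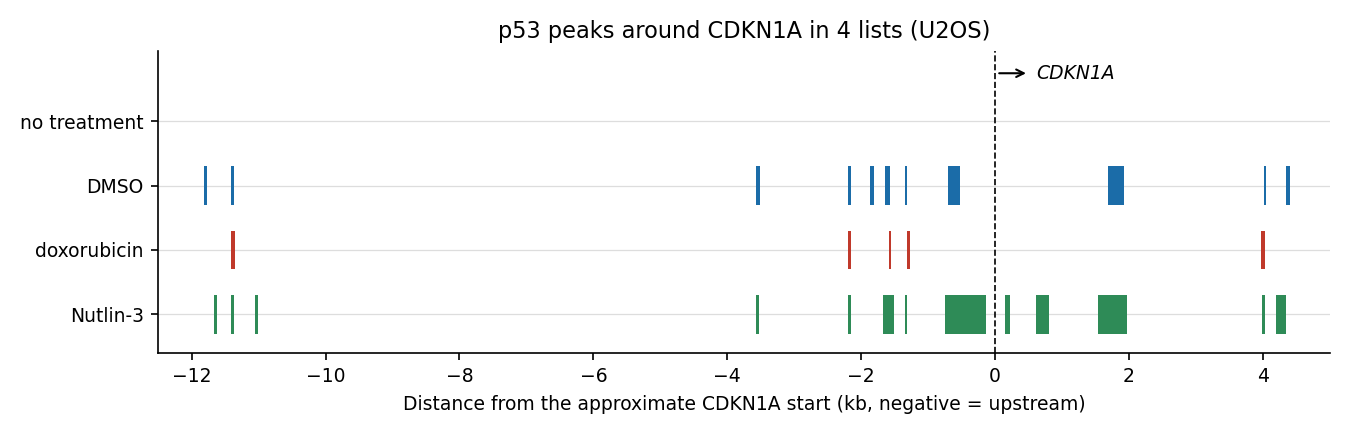
Each bar is a p53 peak drawn to scale, with the list on the vertical axis and the distance from the approximate CDKN1A start in kb on the horizontal axis; the dashed line marks the start and the arrow the direction of transcription. The untreated row is empty, the 5 doxorubicin bars each stand at a site of DMSO and Nutlin-3, and the sites form 4 groups between -11.81 and 4.41 kb.

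The sites formed 4 groups when gaps of at most 1 kb were bridged. The distal group ran from -11.81 to -11.01 kb with 4 sites and 6 peaks. A single site with 2 peaks stood at -3.57 to -3.51 kb, 7.44 kb downstream of the distal group. The main group spanned 4.16 kb across the start, from -2.19 to 1.97 kb, and held 8 sites and 16 of the 29 peaks. The last group, 2000 bp further on, ran from 3.97 to 4.41 kb with 2 sites and 5 peaks. Within and between the groups, 9 of the 14 gaps between neighbouring sites were at most 500 bp, and the median gap was 290 bp.

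The site nearest to the stated distance of the classical upstream element, about 2.2 kb, lay at -2.17 kb, from 36752211 to 36752251. This match is by distance alone, since no sequence was read at the peak. The peak was 40 bp wide in the DMSO list, 40 bp in the doxorubicin list and 40 bp in the Nutlin-3 list, with the same bounds in all 3, and it was not called in untreated cells. It was the only member with identical bounds in these 3 lists. Across all chromosomes 56 peaks had this property. A width of 40 bp is the smallest in any list, so at this site the lists could not be ranked by width. The identity also holds only to the 20 bp steps in which the widths of all peaks are given.

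Between the -2.17 kb site and the start there were 4 further upstream sites. The site at -1.84 kb was called with DMSO alone, from 36752531 to 36752591. The site at -1.59 kb, from 36752731 to 36752891, held an 80 bp peak with DMSO, a 40 bp peak with doxorubicin and a 160 bp peak with Nutlin-3. The Nutlin-3 peak enclosed both others, while the DMSO and doxorubicin peaks had 20 bp in common.

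The further known element was not assigned to any of the sites between -2.17 kb and the start, since no sequence was read. The site at -1.31 kb lay nearer the start. DMSO and Nutlin-3 had the same 40 bp peak there, from 36753051 to 36753091, and the doxorubicin peak, also 40 bp wide, began where they ended and ran to 36753131. By an overlap of at least 1 bp the doxorubicin peak was therefore not shared, and with ends counted as part of a peak it was.

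The widest peaks of the locus flanked the start and were absent from the doxorubicin list. The site just upstream ran from 36753651 to 36754271, or -0.75 to -0.13 kb. With Nutlin-3 the peak was 620 bp wide, with DMSO it was 180 bp wide and lay inside the Nutlin-3 peak, from 36753691 to 36753871, and neither doxorubicin nor untreated cells had a peak there. Only 10 of the 18159 Nutlin-3 peaks (0.0551%) were at least that wide, this one included, and 9.38% of DMSO peaks were at least 180 bp wide. The midpoint of the Nutlin-3 peak lay 180 bp closer to the start than that of the DMSO peak.

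Downstream of the start, Nutlin-3 alone had an 80 bp peak at 0.19 kb, from 36754551 to 36754631, and a 200 bp peak at 0.71 kb, from 36755011 to 36755211. At 1.75 kb both Nutlin-3 (440 bp, from 36755931 to 36756371) and DMSO (240 bp, from 36756091 to 36756331) had a peak, the second within the first. Of the Nutlin-3 list 0.435% of peaks were at least 440 bp wide, and of the DMSO list 4.37% were at least 240 bp wide. This was the widest member of the DMSO list. Doxorubicin had 0 peaks between -1.27 and 3.97 kb, where DMSO had 2 and Nutlin-3 had 4.

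**Figure D2:**
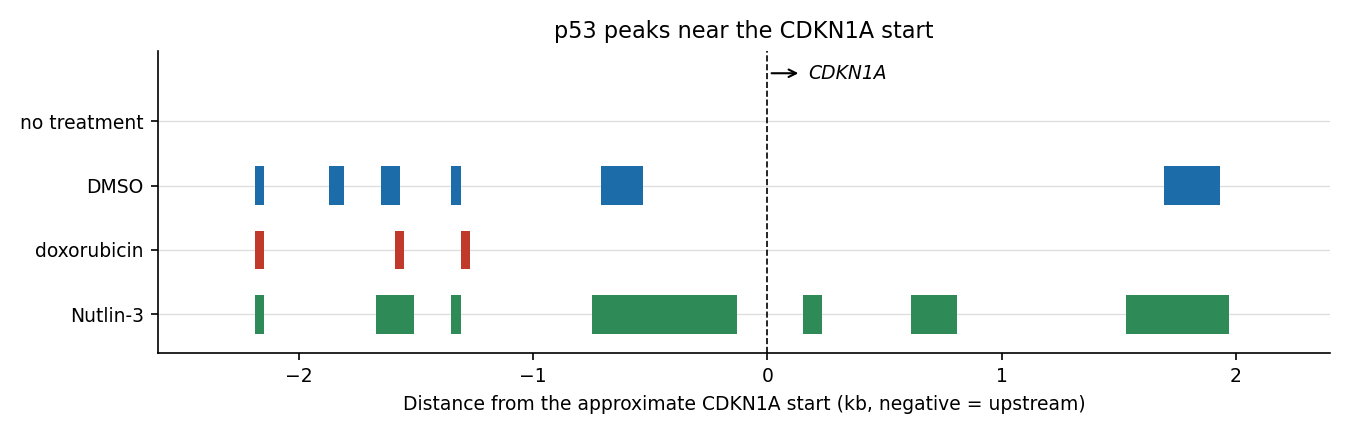
The same bars in the main group of sites, with lists on the vertical axis and distance in kb on the horizontal axis. The peak at -2.17 kb lines up in 3 lists, and the broad Nutlin-3 peaks of 620 and 440 bp on either side of the start have narrower DMSO counterparts and no doxorubicin counterpart.

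Further downstream, the site at 4.01 kb was again called in 3 lists. The DMSO peak was 40 bp wide (36758411 to 36758451), the doxorubicin peak 60 bp (36758371 to 36758431) and the Nutlin-3 peak 40 bp (36758391 to 36758431). All 3 overlapped, with midpoints at most 30 bp apart. At 4.30 kb a 160 bp Nutlin-3 peak (36758591 to 36758751) and a 60 bp DMSO peak (36758751 to 36758811) adjoined without sharing a base, and doxorubicin had none.

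The distal sites, at -11.79 to -11.03 kb, were narrow in each list. DMSO alone had a 40 bp peak at -11.79 kb, and Nutlin-3 alone had 40 bp peaks at -11.65 and -11.03 kb. Between these, at -11.38 kb, DMSO and Nutlin-3 shared the bounds 36742991 to 36743031, and doxorubicin had a 60 bp peak from 36742991 to 36743051. The distal site was one of only 2 at which the doxorubicin peak was wider than the others, the other being that at 4.01 kb, and in both cases by the smallest step of 20 bp. The isolated site at -3.54 kb was called with DMSO (60 bp) and Nutlin-3 (40 bp).

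**Figure D3:**
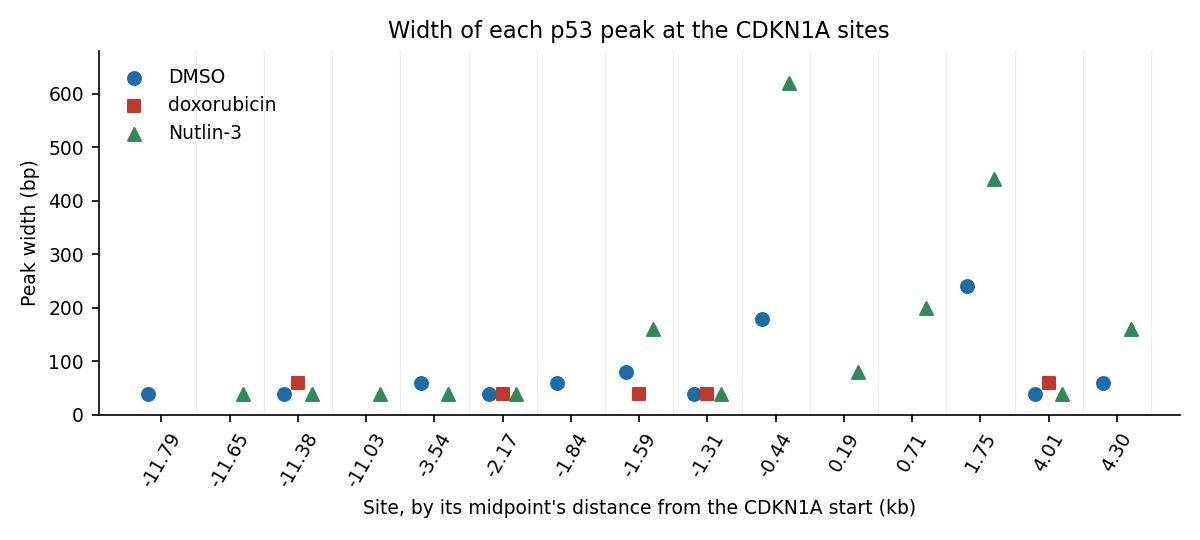
Peak width in bp at each of the 15 sites, ordered by the distance of the site's midpoint from the CDKN1A start, with 1 symbol for each list that has a peak there. Widths stay at 40 to 80 bp at most sites; the Nutlin-3 triangles reach 620 bp at -0.44 kb and 440 bp at 1.75 kb, and the doxorubicin squares stay at 40 or 60 bp.

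Widths summed over the locus set the lists apart more than the number of peaks did. The peaks covered 1940 bp with Nutlin-3, 880 bp with DMSO, 240 bp with doxorubicin and 0 bp without treatment. Of the covered length, 1580 bp of the Nutlin-3 list, 640 bp of the DMSO list and 120 bp of the doxorubicin list lay in the main group across the start. Widths ranged from 40 to 620 bp with Nutlin-3, from 40 to 240 bp with DMSO and from 40 to 60 bp with doxorubicin, with medians of 40, 60 and 40 bp. The median of each whole list was 60 bp, so a broad peak was the exception at CDKN1A too. Peaks of at least 100 bp numbered 5 of 13 with Nutlin-3 (31.8% of its whole list), 2 of 11 with DMSO (26.8%) and 0 of 5 with doxorubicin (29.3%).

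The lists differ in length, and the locus took a different share of each. The window held 0.394% of the 2793 DMSO peaks (exact 95% binomial interval 0.197 to 0.704), 0.162% of the 3087 doxorubicin peaks (0.0526 to 0.378) and 0.0716% of the 18159 Nutlin-3 peaks (0.0381 to 0.122). Intervals cover counting error only and treat peaks as independent, which neighbouring peaks of a locus are not. Of the covered length of each list, the window held 0.386% with DMSO, 0.0692% with doxorubicin and 0.12% with Nutlin-3, so doxorubicin stood above Nutlin-3 by the share of peaks and below it by the share of length. The Nutlin-3 list had more peaks here than the DMSO list, while both shares of its list were lower. When as many of the widest Nutlin-3 peaks were kept as the DMSO list holds, 5 of the 13 remained, against 11 with DMSO. This kept Nutlin-3 peaks only down to 140 bp and DMSO peaks down to 40 bp, so these counts rest on unlike widths. At a common limit of 100 bp, Nutlin-3 had 5 peaks here and DMSO 2. That limit was met by 31.8% of the 18159 Nutlin-3 peaks and 26.8% of the 2793 DMSO peaks. These 2 counts therefore come from lists of unlike length and do not rank the lists. Counting peaks of a list up to 500 bp apart as 1 gave 6 with DMSO, 4 with doxorubicin and 6 with Nutlin-3.

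For the treatments beside their own controls, doxorubicin had 5 peaks at CDKN1A where no treatment had 0, and Nutlin-3 had 13 where DMSO had 11. The 496 untreated peaks included 8 on chromosome 6, and the nearest on either side of CDKN1A lay 10.19 and 15.79 Mb from the start. In the whole lists 0.215% of DMSO, 5.54% of doxorubicin and 0.187% of Nutlin-3 peaks were overlapped by an untreated peak, so 0 of 29 at CDKN1A is near what these lists show elsewhere. The part of the length of the untreated list in this count was not tested.

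Sharing was given as the number of peaks overlapped by at least 1 bp. Nutlin-3 peaks overlapped 8 of the 11 DMSO peaks at CDKN1A (72.7%, exact 95% interval 39 to 94.0), close to the 70.4% of the whole DMSO list. Doxorubicin peaks overlapped 4 of the 11 (36.4%, 10.9 to 69.2), against 45% of the whole list. Of the 5 doxorubicin peaks, 4 were overlapped by DMSO and 4 by Nutlin-3 (80%, 28.4 to 99.5 in both cases). The shares of the whole doxorubicin list were 40.6% and 63.5%, and whether the locus differs from them was not tested.

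Among the Nutlin-3 peaks at CDKN1A, DMSO overlapped 8 of the 13 (61.5%, 31.6 to 86.1) against 10.9% of all Nutlin-3 peaks. The interval treats neighbouring peaks of a single library as independent, so it does not test this difference. The whole-list share is also limited by list length, with 2793 DMSO and 18159 Nutlin-3 peaks. Doxorubicin overlapped 4 of the 13 (30.8%, 9.09 to 61.4) against 10.8%, and this difference was not tested either. The window also held more DMSO peaks than any other of its size, and the part of this in the shares was not tested. With a reciprocal overlap of at least 50%, 2 in place of 4 DMSO peaks were shared with doxorubicin and 2 in place of 4 doxorubicin peaks with DMSO.

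**Figure D4:**
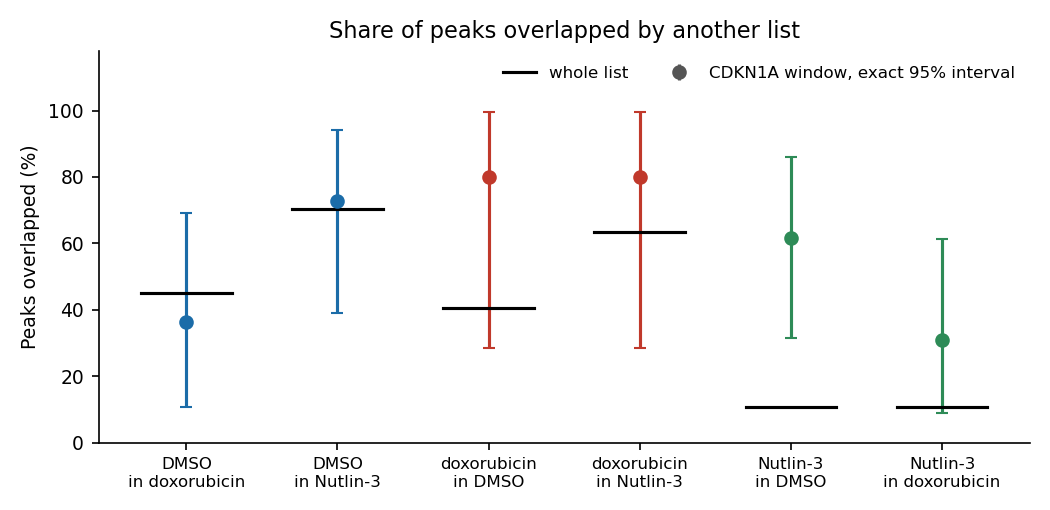
Percentage of the peaks of a list that a peak of another list overlapped by at least 1 bp, for 6 ordered pairs of lists; points are the CDKN1A window with exact 95% binomial intervals, and black lines are the whole list. The Nutlin-3 points, at 61.5% and 30.8%, lie above their lines at 10.9% and 10.8%. The intervals treat neighbouring peaks as independent, so they do not test the distance of a point from its line.

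The absence of doxorubicin from the broad sites beside the start was set against all regions with both DMSO and Nutlin-3 peaks. Doxorubicin was present in 64.4% of 2182 such regions over all chromosomes and in 5 of the 9 at CDKN1A (55.6%, 21.2 to 86.3). Where the widest Nutlin-3 peak of a region was 40 to 60 bp, 69% of 1514 regions held doxorubicin, at 80 to 180 bp 55% of 453 did, and at 200 to 380 bp 50.9% of 175 did. Where it was 400 bp or more, as at the -0.44 and 1.75 kb sites of CDKN1A, 24 of 40 did (60%, 43.3 to 75.1). The other 16 of these 40 regions lacked doxorubicin, and the CDKN1A sites at -0.44 and 1.75 kb were among them.

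By the number of called peaks in a window, CDKN1A was among the fullest places with DMSO and with Nutlin-3. All chromosomes were divided into windows of 45 kb on a grid placed so that the CDKN1A window was one of them, which keeps this locus whole and cuts some others. Of 2417 windows with a DMSO peak, 1 (0.0414%), that of CDKN1A itself, held as many as 11, and the next fullest held 6. Of 12109 windows with a Nutlin-3 peak, 2 (0.0165%) held 13, the highest count, with CDKN1A as one of them. With the window placed freely, the highest count away from CDKN1A was 6 with DMSO and 14 with Nutlin-3. Over all 4 lists together the CDKN1A window held 29 peaks, and 4 of 12656 windows held more, up to 48. Counting peaks of a list up to 500 bp apart as 1 left 6 here with DMSO and 6 with Nutlin-3. The other windows were not recounted in this way, so the ranking holds for single called peaks only.

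With doxorubicin the locus was less exceptional. Of 2501 windows with a doxorubicin peak, 34 (1.36%) held at least 5, and the fullest held 26. With the window placed freely, the highest count away from CDKN1A was 40. Of the 33 grid windows other than CDKN1A with at least 5, 23 also held a peak of untreated cells and 10 did not. A peak of DMSO or Nutlin-3 was held by 11 of the 33. CDKN1A held 0 untreated peaks and peaks of both other lists. These shares were not counted over all 2501 windows with a doxorubicin peak, so they do not set CDKN1A apart. A window with a single peak was the most frequent case, at 88.2% of windows with DMSO, 90.1% with doxorubicin and 69.7% with Nutlin-3.

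**Figure D5:**
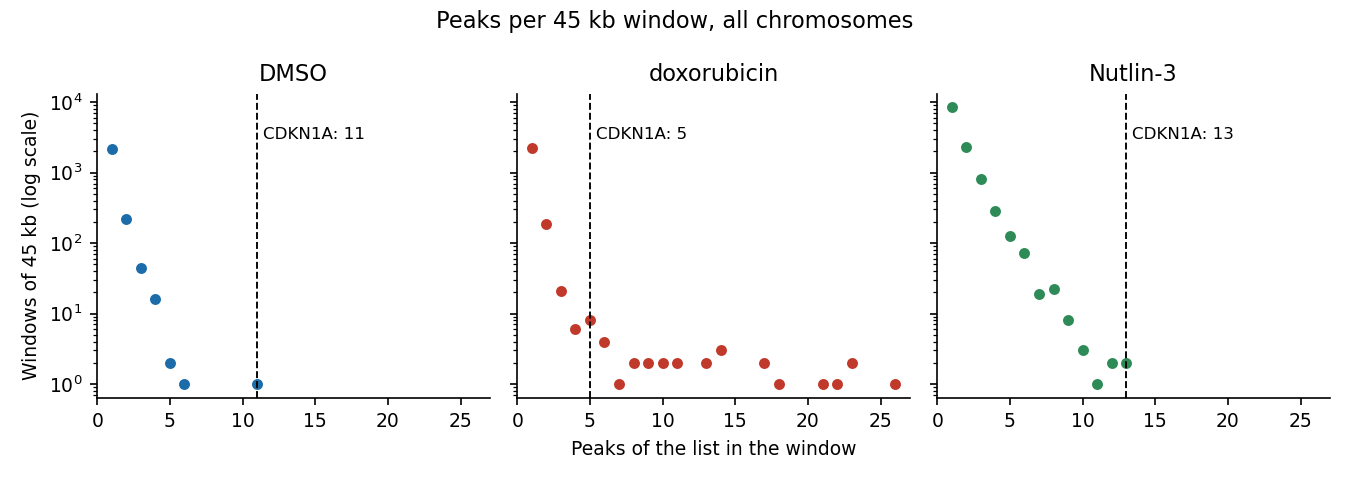
Number of 45 kb windows (vertical axis, log scale) by the number of peaks of a list that they hold (horizontal axis), for windows with at least 1 peak, with a panel each for DMSO, doxorubicin and Nutlin-3; the dashed line marks the CDKN1A window. The CDKN1A window has the highest count with DMSO, 11, shares the highest with Nutlin-3, 13, and lies below 26 windows with doxorubicin.

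The limits of the window did not cut a cluster of peaks. The first member lay 12.59 kb inside the upstream limit and the last 16.19 kb inside the downstream limit. The nearest peaks outside were, upstream, an 80 bp Nutlin-3 peak at -63.2 kb, a 200 bp DMSO peak at -70.3 kb and a 220 bp doxorubicin peak at -70.4 kb. Downstream they were a Nutlin-3 peak at 207.2 kb, a DMSO peak at 399.3 kb and a doxorubicin peak at 560.3 kb. The DMSO peak at -70.3 kb and the doxorubicin peak at -70.4 kb overlapped each other. The p53 sites of CDKN1A formed a run of 16.22 kb over the lists that had any. Whether its distance from the next peaks is unusual was not tested.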

How the data were processed

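The authors deposited 1 list of p53 ChIP-seq peaks per ChIP library, as positions with no score, and no list of the inputs was used here. Per the submitters' processing notes, the build was hg18, and CASAVA and Bowtie 0.12.2 were used. Each ChIP library has an input of the same condition per the labels, while for the peak caller and its settings the sources used here name nothing. Positions are printed as deposited. Whether starts count from 0 or 1 is not stated, and ends were taken as outside the peak.

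The window and the approximate start come from the rule that defined the locus. The members and the settings were chosen with earlier results of these data known. All members are named, with sites merged by bedtools 2.31.1 and overlaps, exact Clopper-Pearson intervals and figures made in Python 3.11.15 (scipy 1.17.1, matplotlib 3.10.9). The overlap code was tested on simulated peaks. No test between conditions was possible with 1 library each. Alternatives were another window size, width limits, overlap rules, merging distances, lists of equal length (ties in width broken by position), leaving out a list and a shifted start. No genome of hg18 was used, so no sequence was read at a peak and no other gene was located.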

Additional observations from a re-analysis of the deposited data

How the results depend on the processing

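Of 62 alternatives for 17 results, 44 stayed within 1.5 times the reported count and 18 moved. Some of the 44 could not move, such as those of the untreated counts of 0 and the DMSO count in a list cut to its own length. The alternatives that left out a list, changed the gap within a group, shifted the start or counted sites by lists with at least 1 bp shared were chosen after the data were seen. Without the narrowest peaks (40 bp), the window held 6 DMSO, 2 doxorubicin and 6 Nutlin-3 peaks. With peaks of a list up to 500 bp apart counted as 1, DMSO and Nutlin-3 had 6 each. Merging the lists over 500 bp gave 6 sites, of which 0 were in 1 list and 3 in 3 lists. With as many of the widest peaks as the DMSO list holds, Nutlin-3 had 5 peaks, 7 sites were in 2 lists and 1 in 3 lists, 3 DMSO peaks were shared with Nutlin-3 and 3 Nutlin-3 peaks with DMSO, and 1 doxorubicin peak was shared with Nutlin-3 and 1 Nutlin-3 peak with doxorubicin. A shorter Nutlin-3 list, here cut at 140 bp, lowers its count and the sharing by construction. With a reciprocal overlap of 50%, 2 DMSO peaks were shared with doxorubicin and 2 doxorubicin peaks with DMSO. Gaps of up to 2000 bp left 2 groups of sites. Leaving out the DMSO, doxorubicin or Nutlin-3 list gave 13, 15 and 11 sites, and 10 sites lay upstream when the start was moved by 100 bp either way. No paired analysis was possible because each condition had 1 library and no test was made. A stricter score and leaving out a replicate could not be run, since the lists hold no score and there are no replicates. The unknown depth limits every count of peaks that a list lacks.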
